A study of Mus musculus with 18 samples.

Results

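The genes described here encode the proteins of the cytosolic ribosome. They were chosen by name: symbols that start with Rpl (large subunit), Rps (small subunit) or Rplp (the stalk of the large subunit), followed by a number and at most a short suffix. The name rule leaves out kinase genes such as Rps6ka1 and entries named as pseudogenes. It found 86 of 37319 genes: 49 Rpl genes, 34 Rps genes and 3 Rplp genes. In an annotation of another genome build, 4 of the 86 (Rpl6l, Rps3a2, Rps3a3 and Rps4l) are listed as pseudogenes, so that the label does not hold strictly for these.

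The samples were 18 RNA-seq libraries from the cortex of the injured side of male C57BL/6J mice, 8 to 10 weeks old. All mice had received an adeno-associated virus (AAV) in the left lateral ventricle 4 weeks before surgery. The virus carried, under the synapsin promoter, which is active in neurons, a short hairpin RNA (shRNA) against Tiparp (T) or a scramble control shRNA (C). Surgery was transient middle cerebral artery occlusion (tMCAO), a stroke model in which the artery is blocked and then reopened, or a sham operation. The 6 groups of 3 libraries were Sham_T and Sham_C, R24h_T and R24h_C (24 h after tMCAO), and R28d_T and R28d_C (28 d after tMCAO). By its promoter the shRNA is meant for neurons, whereas the libraries hold RNA of the whole tissue. The labels do not say that each library is a separate mouse, and a p-value therefore reflects only how far these libraries spread.

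Ribosomes translate all cellular messages, and their proteins are made in nearly equal amounts, which are set largely by how well the messages are translated. Most vertebrate ribosomal protein messages begin with a C followed by a run of pyrimidines (the 5′ terminal oligopyrimidine, or TOP, motif), through which the kinase mTOR and the RNA-binding protein LARP1 regulate their translation. In brain, ischemia blocks protein synthesis within minutes, and its later recovery differs between surviving and dying tissue. Message levels measured here say nothing of translation.

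The starts of a few genes are shown because the TOP motif lies there, and because the genes that changed most can be compared by it. The sequences are from RefSeq (build GRCm38.p6), whose promoter table held 62 of the 86 genes. Each line spans 15 bases before and 15 bases after an annotated start, read 5′ to 3′ on the strand of the gene. Capitals mark a C followed by at least 4 further pyrimidines that begins within 3 bases of the start.
Rpl18, chr7:45718056-45718085, plus strand: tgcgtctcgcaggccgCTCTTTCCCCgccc
Rpl28, chr7:4792950-4792979, plus strand: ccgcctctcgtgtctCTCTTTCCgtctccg
Rps6, chr4:86857353-86857382, minus strand: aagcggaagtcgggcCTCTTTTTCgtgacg
Rpl7a, chr2:26910792-26910821, plus strand: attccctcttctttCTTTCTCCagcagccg
Rps27l, chr9:66946071-66946100, plus strand: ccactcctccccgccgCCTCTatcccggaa
Rps21, chr2:180257364-180257393, plus strand: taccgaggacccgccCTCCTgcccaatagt
Rpl22l1, chr3:28805493-28805522, plus strand: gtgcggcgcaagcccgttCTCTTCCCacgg
Rplp0, chr5:115559452-115559481, plus strand: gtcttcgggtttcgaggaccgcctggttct
Rps25, chr9:44407699-44407728, plus strand: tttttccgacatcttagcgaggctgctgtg
Rpl18, Rpl28, Rps6 and Rpl7a carry the run and were called higher at 24 h over both arms, and Rps21 and Rpl22l1 carry it and were not. Rplp0 and Rps25 were called higher without it at the annotated start. The same holds for Rps2, Rpl27, Rpl7l1 and Rpl19, whose starts are not shown, so the genes shown are no measure of how often called genes carry the run. Rps27l, also called, and Rps21 each have a second annotated start without the run, and the first is shown.

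Such a run was present in 25 of the 62 genes (40.3%), against 3651 of 27025 genes in the whole table (13.5%). The letters CCGGAAG, which ETS family factors such as GABPA bind, were found on either strand between 250 bases before and 50 bases after the start in 40.3% of the 62 genes and in 9.93% of all genes. AAGATGG, the core of YY1 sites, was found in 16.1% and 7.28%. CACGTG, the E-box that MYC binds, was found in 9.68% and 8.09%, and TATAAA in 11.3% and 15.7%. Rps25 is the gene of the family that stood apart at 28 d, and the 120 bases before its start hold one CCGGAAG (capitals).
Rps25, chr9:44407594-44407713, plus strand: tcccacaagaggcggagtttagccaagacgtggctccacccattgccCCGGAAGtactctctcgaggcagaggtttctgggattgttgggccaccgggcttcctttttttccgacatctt
A match is a description of these letters and not a site in use.

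Levels are in FPKM (fragments scaled to transcript length and to the size of the library), the deposited unit. Of the 86 genes, 84 had a mean over the 18 libraries of at least 1 FPKM, between 3.00 FPKM (Rpl22l1) and 470.2 FPKM (Rplp1), with a median of 42.1 FPKM. The highest means after Rplp1 were 422 FPKM for Rps15, which reaches into the decoding center, 218 FPKM for Rpl4, which lines the exit tunnel, and 165 FPKM for Rpl8, which lies near the peptidyl transferase center. The muscle paralog Rpl3l stayed at or below 0.289 FPKM in every library, against a mean of 78.6 FPKM for its parent Rpl3. Rpl39l, a paralog known from testis, stayed at or below 0.327 FPKM and was listed at 0 in 13 libraries, against a mean of 12.0 FPKM for Rpl39. Both failed the filter (at least 1 FPKM in at least 3 libraries) and were not tested. The other 84 passed it in every comparison.

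Reads of many of these genes match elsewhere in the genome. In the annotation of the other build, a median of 40.1% of the 50-base words of a family gene's transcripts also occurred in transcripts of other genes, and 32 of the 86 genes shared over 50%. Levels of single genes, and above all of Rpl6l, Rps3a2 and Rps3a3, are uncertain for this reason. Rplp1 shared 60.0%, Rplp0 41.8%, Rps25 23.6% and Rps27l 22.4% of their words. The 209 entries named as ribosomal protein pseudogenes summed to 1795 to 2833 FPKM in R24h_C against 1455 to 1674 FPKM in Sham_C, and to 1484 to 1954 FPKM in R24h_T against 1507 to 1812 FPKM in Sham_T, so they overlapped with sham in the Tiparp arm alone.

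Some features of the libraries touch the results. Rough relative depth was 0.936 to 1.083 times that of Sham_C1, from the lowest values. Pearson's r across genes between libraries of a group was 0.990 to 0.992 in the sham groups and 0.969 to 0.990 in the others. Tiparp was at 4.17 to 4.95 FPKM in Sham_T and 3.77 to 4.76 FPKM in Sham_C, which overlapped. After 24 h, R24h_T had 3.99, 5.00 and 3.00 FPKM of Tiparp, against 6.66, 4.604 and 8.65 FPKM in R24h_C, which overlapped as well. Ttr, a choroid plexus gene, exceeded 100 FPKM in 4 libraries (Sham_T1, Sham_T2, R24h_C3 and R28d_T2). Summed microglia and macrophage markers were 341 to 615 FPKM in R24h_T, 394 to 703 FPKM in R24h_C, 178 to 195 FPKM in Sham_T and 165 to 168 FPKM in Sham_C. R24h_T3 stood apart from R24h_T1 and R24h_T2, and its agreement with its label could not be checked here: the median log2 difference of 36 proteasome subunit genes from Sham_C was -0.01 in it, against 0.38 and 0.50 in the others. Of the 8 neutrophil markers, Ly6g, Camp, Ltf, Mpo and Elane stayed under 1 FPKM throughout.

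As a family, the ribosomal protein genes were higher 24 h after tMCAO in the scramble arm, and least so in one of its libraries. Their FPKM summed to 6717, 4964 and 8116 in R24h_C1, R24h_C2 and R24h_C3, against 4822, 4381 and 4319 in Sham_C1, Sham_C2 and Sham_C3. All 3 libraries at 24 h lay above all 3 sham libraries, and R24h_C2 lay just above. As a share of all FPKM outside mitochondrially encoded genes, the family took 2.66%, 2.03% and 3.12% in R24h_C1 to R24h_C3, against 1.99%, 1.82% and 1.87% in Sham_C1 to Sham_C3. The median log2(FPKM + 1) difference from the Sham_C mean over the 84 genes was 0.63, 0.18 and 0.88 in the 3 libraries at 24 h. After median-ratio scaling it was 0.47, 0.07 and 0.69, and R24h_C2 was then below Sham_C1 (0.08), so that the groups overlapped. In bulk tissue, a change in which cells are present and a change in RNA per cell cannot be told apart.

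**Figure D1:**
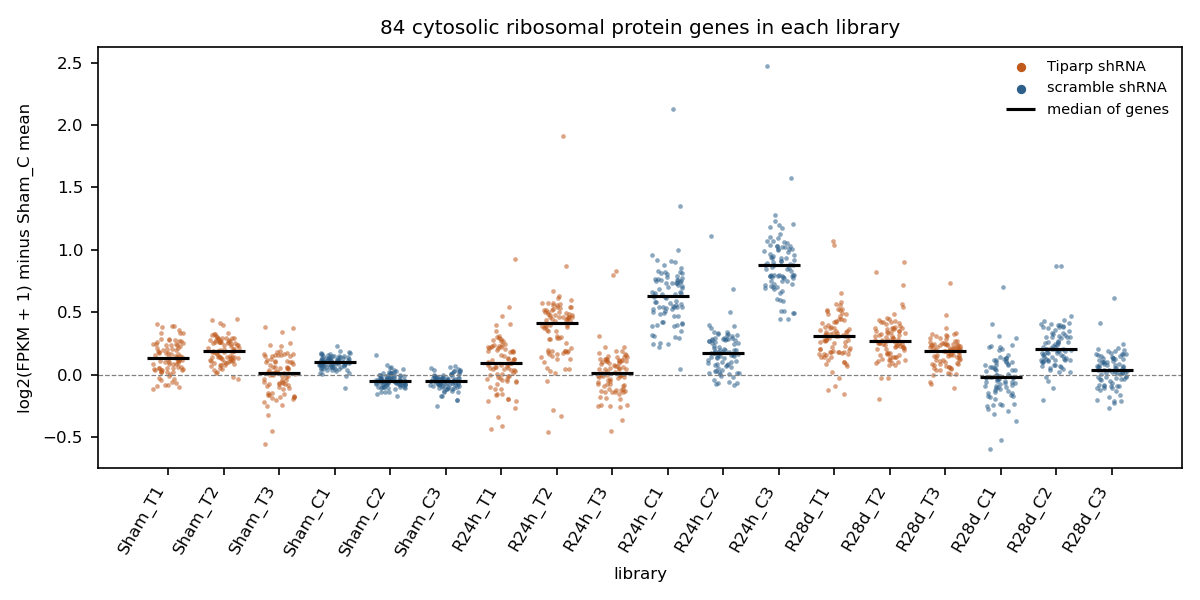
Each point is 1 of 84 ribosomal protein genes in 1 library, as log2(FPKM + 1) minus the mean of Sham_C, and black bars are medians over the genes. Medians reach 0.63 and 0.88 in R24h_C1 and R24h_C3 and 0.41 in R24h_T2, and lie between -0.05 and 0.31 in the other libraries.

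In R24h_C against Sham_C, 26 of the 84 genes (31.0%) were higher and 0 lower by limma (adjusted p under 0.05, Benjamini-Hochberg over all 13880 genes tested), against 19.8% of all genes called higher and 4.24% called lower. The median log2 difference was 0.55 over the family and 0.13 over all genes, and all 84 genes lay above 0, as did 65.2% of all genes. For 59 of the 84 genes every library at 24 h was above every sham library, as for 36.1% of all genes. After median-ratio scaling, which sets the median of all genes to about 0, 8 genes (9.52%) were called against 11.9% of all genes called higher, and the family median was 0.40. The share of family genes called was thus above that of all genes as deposited and not after scaling, whereas the family median stayed above that of all genes in both.

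The count also turned on single libraries. Without R24h_C2 it was 78, without R24h_C3 it was 5, without R24h_C1 it was 0, and without Sham_C1, Sham_C2 and Sham_C3 it was 1, 0 and 0. Among all genes, 2747 were called higher with every library kept, and this number moved likewise. It was 3651 without R24h_C2, 1502 without R24h_C3 and 260 without R24h_C1. Without Sham_C1, Sham_C2 and Sham_C3 it was 690, 508 and 675. The family median was between 0.39 and 0.75 in these fits, with all 84 genes above 0 in each. Within R24h_C, the libraries with the highest family levels (R24h_C1 and R24h_C3) also had the highest sums of microglia and macrophage markers. These were 703 and 678 FPKM, against 394 FPKM in R24h_C2. In other groups, R24h_T1 had 615 FPKM at a median family log2 difference from Sham_C of 0.09, and R28d_T1 had 1870 FPKM at 0.31. Of the 11 such markers tested in R24h_C against Sham_C, 9 (81.8%) were called higher, against 19.8% of all genes. R24h_C3 also held the most neutrophil marker RNA (159 FPKM, where R24h_C1 had 35.0 FPKM and R24h_C2 had 23.6 FPKM) and the lowest sum of neuron markers (444 FPKM, against 742 and 855 FPKM). Its sum of striatal neuron markers was in contrast the highest (393 FPKM, against 77.6 and 129 FPKM). Their part in the result was not tested.

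In the Tiparp arm the family as a whole was near its sham level at 24 h. The FPKM summed to 4608, 5493 and 4338 in R24h_T1, R24h_T2 and R24h_T3, against 4807, 5136 and 4288 in Sham_T1, Sham_T2 and Sham_T3. The groups overlapped, and only R24h_T2 lay above all sham libraries. By limma, 0 of 84 genes were called higher and 0 lower (0.133% and 0.0888% of all genes were). The unadjusted limma p was under 0.05 for 3 of the 84, against 1934 of all 13509 genes. Every library at 24 h was above sham for 4 genes, where 13.9% of all genes did so. The median log2 difference was 0.05 over the family and 0.06 over all genes. With single libraries left out the count stayed at 0, and the family median was 0.12 without R24h_T3, -0.06 without R24h_T2 and -0.01 without Sham_T3. After scaling it was -0.02. The direction of the median in this arm thus turned on single libraries and on scaling.

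At 24 h all 84 genes were lower in R24h_T than in R24h_C, with a median log2 difference of -0.40 (-0.08 over all genes). The median was -0.23 without R24h_C3 and -0.60 without R24h_C2. None was called (0% of all genes were), the smallest adjusted p by limma was 0.668, and 16 genes had an unadjusted p under 0.05. All R24h_T libraries were below all R24h_C libraries for 11 of the 84 genes, against 8.78% of all genes. The difference of the 24 h effects between the arms (R24h_T minus Sham_T, less R24h_C minus Sham_C) was likewise below 0 for all 84 genes, with a median of -0.52. Over all genes the median was -0.09, with 38.2% above 0. No gene passed (0% of all 14589), the smallest adjusted p was 0.415, and 35 genes had an unadjusted p under 0.05. The arms were therefore not shown to differ. Without the 4 libraries of high Ttr, which include R24h_C3 and leave 1 library in Sham_T, the family median was -0.25, with 82 of 84 genes below 0. The lone sham library is assumed there to vary like the other groups.

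**Figure D2:**
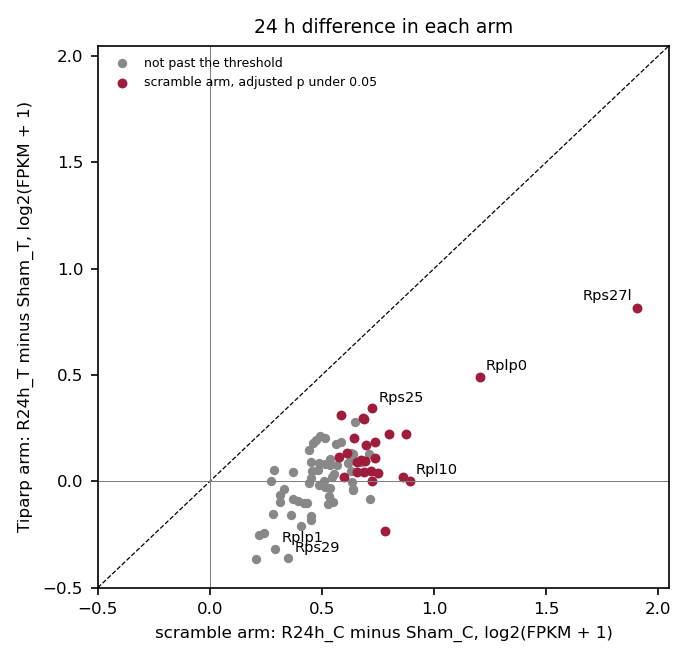
Each point is 1 of 84 genes, with the 24 h minus sham difference of log2(FPKM + 1) in the scramble arm on the horizontal axis and in the Tiparp arm on the vertical axis, and the dashed line marks equal differences. All points lie below that line, and the red points are the 26 genes called in the scramble arm. Rps27l and Rplp0 lie far to the right and highest in both arms.

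Over both arms, 24 h against sham (6 libraries against 6, with the arm as a covariate) gave 13 genes higher and 0 lower. These are 15.5% of the 84, against 19.3% of all 14589 genes called higher and 5.38% called lower, so the family was not called more often than other genes. Its median log2 difference was 0.31, against 0.10 over all genes, and 79 of 84 genes lay above 0. Only for Rps27l, Rplp0 and Rps25 did all 6 libraries at 24 h exceed all 6 sham libraries, as for 8.19% of all genes. After scaling, 7 genes (8.33%) were called against 12.5% of all genes, with a median of 0.20. This comparison shares its libraries with those of the single arms. Without R24h_T3 the count was 36, without R24h_C2 it was 27, and without R24h_C1 it was 4. Among all genes, 2812 were called higher with every library kept, and 4093, 2726 and 1588 in these fits.

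The single largest difference was that of Rps27l (ENSMUSG00000036781), a paralog of Rps27 whose gene is a target of p53. It was at 5.81, 12.5 and 5.37 FPKM in R24h_T1 to R24h_T3 and 14.7, 6.78 and 18.9 FPKM in R24h_C1 to R24h_C3, against 3.77, 3.87 and 3.65 FPKM in Sham_T1 to Sham_T3 and 3.05, 2.26 and 2.51 FPKM in Sham_C1 to Sham_C3. Every library at 24 h lay above every sham library. The log2 difference was 1.36 (SE 0.27, limma adjusted p = 0.00567) over both arms, 0.81 in the Tiparp arm (adjusted p = 0.267) and 1.90 in the scramble arm (adjusted p = 0.0134). Its parent Rps27 was at 22.7, 25.01 and 20.5 FPKM in R24h_T and 28.7, 21.1 and 36.5 FPKM in R24h_C, against 21.9, 24.3 and 21.9 FPKM in Sham_T and 21.4, 18.6 and 18.5 FPKM in Sham_C. Those groups overlapped over both arms, and Rps27 was not called (log2 difference 0.25, adjusted p = 0.182).

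Rplp0 (ENSMUSG00000067274) encodes the base of the stalk, which binds dimers of Rplp1 and Rplp2 and recruits elongation factors, and its message is often used as a reference in quantitative PCR. It was at 127, 159 and 95.8 FPKM in R24h_T1 to R24h_T3 and 223, 140.3 and 261 FPKM in R24h_C1 to R24h_C3. In sham it was at 92.5, 92.7 and 80.2 FPKM in Sham_T1 to Sham_T3 and 91.4, 80.8 and 88.6 FPKM in Sham_C1 to Sham_C3. The groups did not overlap, although R24h_T3 was only just above the highest sham library. The log2 difference was 0.85 (SE 0.18, limma adjusted p = 0.00791) over both arms, 0.49 in the Tiparp arm (adjusted p = 0.324) and 1.20 in the scramble arm (adjusted p = 0.016).

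The partners of Rplp0 did not move with it to the same extent. Rplp1, the most abundant message of the family, was at 356, 349 and 352 FPKM in R24h_T and 572, 475 and 757 FPKM in R24h_C, against 454, 568 and 327 FPKM in Sham_T and 537, 473 and 441 FPKM in Sham_C. The groups overlapped in both arms, and the log2 difference over both arms was -0.01 (SE 0.17, limma adjusted p = 0.967). Rplp2 was at 19.3, 23.2 and 18.4 FPKM in R24h_T and 32.7, 23.7 and 35.4 FPKM in R24h_C, against 19.6, 20.8 and 16.7 FPKM in Sham_T and 19.2, 19.1 and 18.1 FPKM in Sham_C. It was called in the scramble arm (log2 difference 0.66, adjusted p = 0.0278) and not over both arms (0.37, adjusted p = 0.0554). A direct test between stalk genes was not made.

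**Figure D3:**
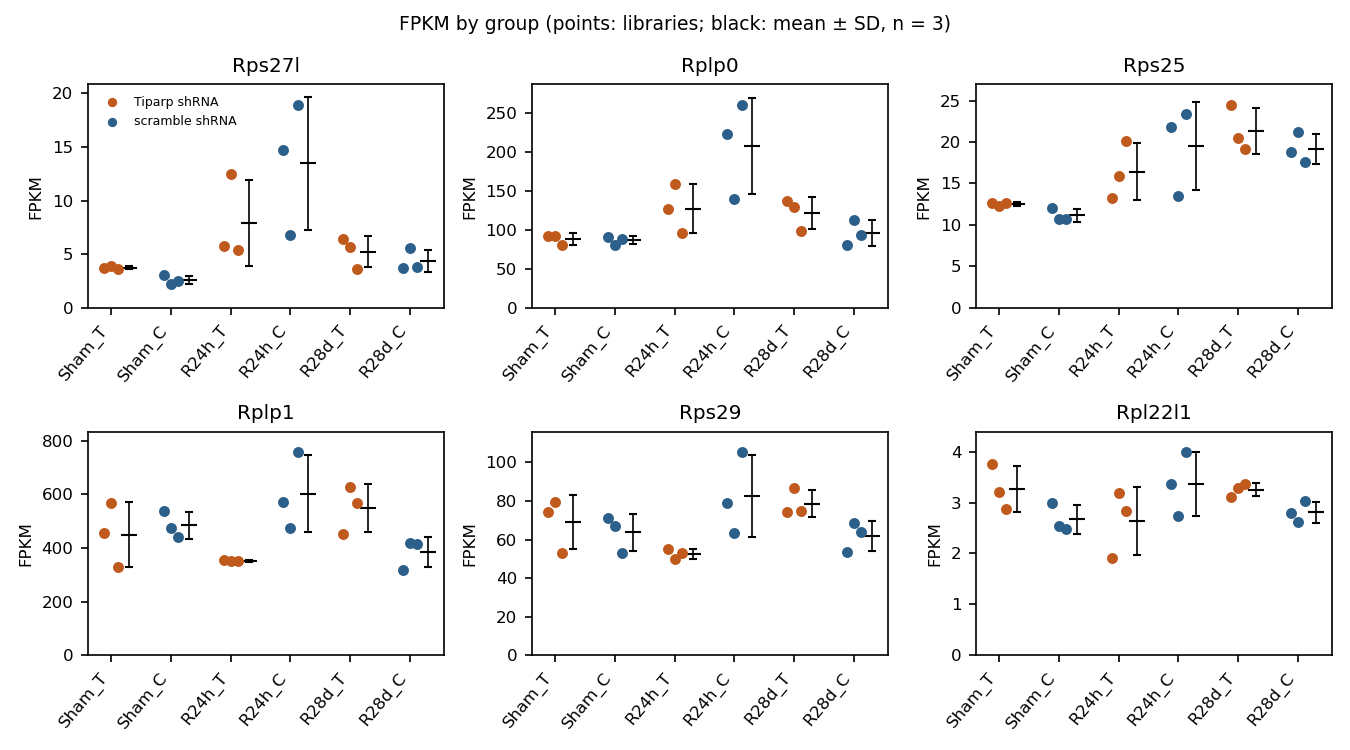
FPKM of 6 genes in each library (points) with the mean and SD of the 3 libraries of a group (black), and each axis starts at 0. Rps27l and Rplp0 are highest in R24h_C, and Rps25 is above every sham library in all libraries at 24 h and at 28 d. The means of Rplp1, Rps29 and Rpl22l1 are lower in R24h_T than in Sham_T.

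Among large-subunit genes, 7 of 47 tested (14.9%, against 19.3% of all genes) were higher at 24 h over both arms. After scaling 4 were (8.51%, against 12.5% of all genes). The 7 had log2 differences between 0.42 and 0.55: Rpl18, Rpl7a, Rpl28, Rpl27, Rpl7l1, Rpl7 and Rpl19. Rpl18 was at 10.7, 12.0 and 8.49 FPKM in R24h_T and 16.3, 12.0 and 20.2 FPKM in R24h_C, against 8.74, 9.65 and 7.71 FPKM in Sham_T and 8.40, 8.27 and 7.88 FPKM in Sham_C. Only R24h_T3 lay within the sham range, and the log2 difference was 0.55 (SE 0.15, limma adjusted p = 0.0214). Rpl7l1, a relative of Rpl7, shared only 7.48% of its words with other genes and was at 12.5, 16.0 and 10.2 FPKM in R24h_T and 16.6, 13.4 and 17.2 FPKM in R24h_C, against 9.38, 10.3 and 10.5 FPKM in Sham_T and 11.3, 9.59 and 9.56 FPKM in Sham_C. Again only R24h_T3 lay within the sham range, with a log2 difference of 0.45 (SE 0.11, adjusted p = 0.0136). Rpl10, which is added last to the large subunit, was called in the scramble arm (0.89, adjusted p = 0.0301), where it was at 19.8, 12.7 and 24.2 FPKM in R24h_C against 9.87, 8.89 and 9.46 FPKM in Sham_C. It was at 10.2, 13.6 and 10.0 FPKM in R24h_T, against 11.6, 10.5 and 11.2 FPKM in Sham_T, which overlapped.

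Among small-subunit genes, 5 of 34 (14.7%, against 19.3% of all genes) were higher at 24 h over both arms: Rps27l, Rps25, Rps2, Rps6 and Rps14. After scaling Rps27l and Rps25 were called (5.88%, against 12.5% of all genes). Rps2, which lies where the message enters, was at 81.0, 112 and 87.6 FPKM in R24h_T and 152, 101 and 184 FPKM in R24h_C, against 74.6, 80.0 and 83.1 FPKM in Sham_T and 83.0, 79.2 and 80.7 FPKM in Sham_C. R24h_T1 lay within the sham range and the other 5 libraries lay above it (log2 difference 0.51, limma adjusted p = 0.0321). The call was lost under 10 of 20 alternatives, scaling among them (adjusted p = 0.06). Rps6, the substrate of the S6 kinases downstream of mTOR, was at 71.0, 91.1 and 61.8 FPKM in R24h_T and 107, 73.3 and 129 FPKM in R24h_C, against 63.3, 69.0 and 61.9 FPKM in Sham_T and 62.7, 57.6 and 59.0 FPKM in Sham_C. R24h_T3 lay within the sham range and the other 5 libraries lay above it, and the log2 difference was 0.46 (adjusted p = 0.0447). Rps16 had a log2 difference of 0.86 in the scramble arm (adjusted p = 0.0333), where it was at 44.5, 29.6 and 54.0 FPKM in R24h_C against 25.2, 21.2 and 21.0 FPKM in Sham_C without overlap. After scaling it was not called (adjusted p = 0.0515).

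The genes with the lowest 24 h differences over both arms were Rps21 (-0.08), Rpl37 (-0.01) and Rplp1 (-0.01), and none of them was called. Rps21 was at 26.1, 28.7 and 31.0 FPKM in R24h_T and 41.8, 33.6 and 48.3 FPKM in R24h_C, against 43.0, 38.1 and 31.0 FPKM in Sham_T and 38.4, 33.5 and 33.9 FPKM in Sham_C. The groups overlapped in both arms, in the Tiparp arm only through Sham_T3. Rps29 stood at 54.99, 49.9 and 53.2 FPKM in R24h_T and 79.0, 63.4 and 105 FPKM in R24h_C, against 74.3, 79.5 and 53.0 FPKM in Sham_T and 71.1, 66.9 and 53.0 FPKM in Sham_C, with overlap in both arms. After scaling, Rps21 was at -0.19 over both arms, with 75 of 84 genes above 0.

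**Figure D4:**
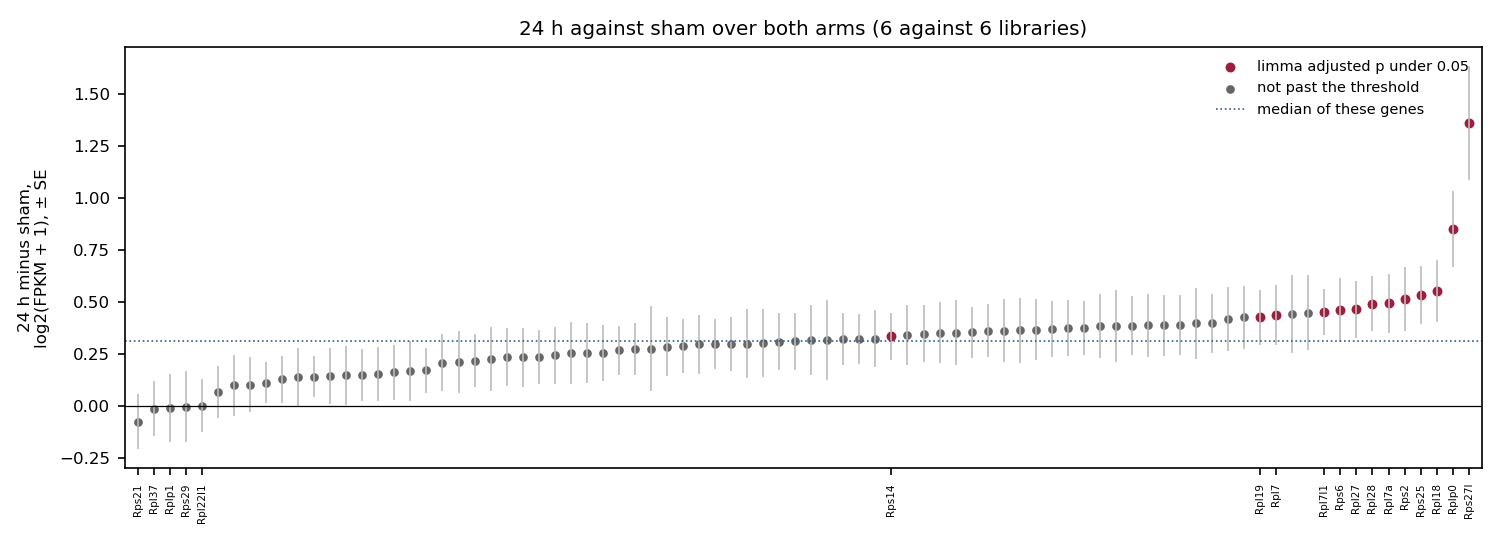
The 84 genes in order of their 24 h minus sham difference in log2(FPKM + 1) over both arms, with SE bars, and the 13 genes called by limma in red. Only these and the lowest genes carry names. Most genes lie near the median of 0.31, with Rps27l (1.36) and Rplp0 (0.85) above the rest and Rps21 lowest.

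Of the 8 paralogs by name, 6 were tested, and 4 of these were called in the scramble arm (Rps27l, Rpl36al, Rpl6l and Rpl7l1), where 19.8% of all genes were higher. After median-ratio scaling 2 of the 6 were called, Rps27l and Rpl7l1 (33.3%, against 11.9% of all genes). Rpl22l1, which in the mouse can stand in for Rpl22, was at 1.90, 3.18 and 2.84 FPKM in R24h_T and 3.37, 2.74 and 3.99 FPKM in R24h_C, against 3.76, 3.20 and 2.87 FPKM in Sham_T and 2.99, 2.54 and 2.48 FPKM in Sham_C, with overlap. Rpl22 averaged 12.1 FPKM over all libraries, and neither was called over both arms. Rpl36al was called in the scramble arm (log2 difference 0.78, limma adjusted p = 0.0479), where it was at 30.3, 19.3 and 37.9 FPKM in R24h_C against 16.1, 16.0 and 15.8 FPKM in Sham_C. In the Tiparp arm it was at 15.4, 22.2 and 15.2 FPKM in R24h_T against 21.3, 21.6 and 18.9 FPKM in Sham_T, which overlapped. Rpl6l was called in the scramble arm too (0.60), and Rps4l, a copy related to Rps4x, was not (0.29, adjusted p = 0.139).

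At 28 d the family lay near sham, and 1 gene was called. Over both arms the median log2 difference from sham was 0.11 over the family and 0.04 over all genes. Rps25 (ENSMUSG00000009927), a protein of the small-subunit head that some viral internal ribosome entry sites need, was the only family gene called, and the only one called of all 14242 genes (0.00702%). It was at 24.5, 20.4 and 19.2 FPKM in R28d_T1 to R28d_T3 and 18.8, 21.2 and 17.6 FPKM in R28d_C1 to R28d_C3. In sham it was at 12.7, 12.3 and 12.6 FPKM in Sham_T1 to Sham_T3 and 12.1, 10.7 and 10.7 FPKM in Sham_C1 to Sham_C3. The lowest library at 28 d was well above the highest sham library, a separation seen for 1.19% of all genes. The log2 difference was 0.72 (SE 0.065, limma adjusted p = 0.00201). Separate tests of the arms gave 0.72 (adjusted p = 0.221) in the Tiparp arm and 0.73 (adjusted p = 0.0829) in the scramble arm. The call was kept with each of the 12 libraries left out in turn and after scaling (0.68). It was lost without the 4 libraries of high Ttr, where the difference was 0.73 (adjusted p = 0.131), and with all 18 libraries in 1 fit (adjusted p = 0.11).

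Rps25 at 24 h was at 13.2, 15.9 and 20.1 FPKM in R24h_T1 to R24h_T3 and 21.8, 13.5 and 23.4 FPKM in R24h_C1 to R24h_C3. All 6 libraries exceeded sham, and the log2 difference over both arms was 0.53 (limma adjusted p = 0.0188). To separate this from the family, each gene's difference from Sham_C was taken relative to the family median of the same library. On that log2 scale Rps25 lay between 0.54 and 0.76 in the 6 libraries at 28 d, at 0.78 in R24h_T3, and between -0.06 and 0.28 in the other 11. R24h_T3 thus stood with the 28 d libraries for this gene, a feature picked out after the values were seen. Rps25 overlaps exons of Trappc4 and Ccdc84 on the opposite strand in the annotation of the other build, and the sources used here do not say whether strand was used in quantification. Trappc4 was at 6.60 to 7.76 FPKM at 28 d and 6.46 to 8.31 FPKM in sham, and Ccdc84 at 3.43 to 4.25 and 3.29 to 4.51 FPKM, and their part in the Rps25 value was not tested. Summed microglia and macrophage markers were 1870, 970.2 and 318 FPKM in R28d_T and 219, 777 and 512 FPKM in R28d_C, against 165 to 195 FPKM in sham. Their part in the Rps25 result was not tested.

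**Figure D5:**
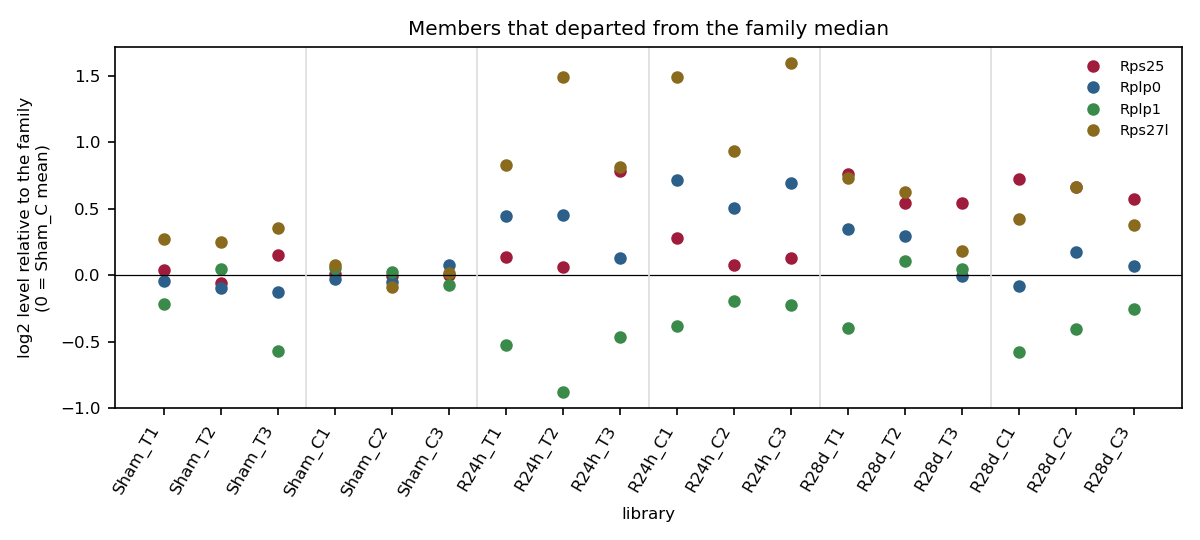
Log2 level of 4 genes in each library relative to the family median of that library, with 0 at the Sham_C mean. Rps25 sits between 0.54 and 0.78 in the 6 libraries at 28 d and in R24h_T3, whereas Rps27l is highest in R24h_T2, R24h_C1 and R24h_C3.

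No other family gene passed at 28 d. In the single arms, 0 of 84 were called in R28d_T against Sham_T (0.00738% of all genes were higher and as many lower) and 0 in R28d_C against Sham_C (0.0224% higher and 0.0298% lower). The unadjusted limma p was under 0.05 for 13 and 10 of the 84. Among all genes this held for 1428 of 13544 and 1542 of 13419. Every R28d_T library was above every Sham_T library for 24 genes and below for 1, against 10.9% and 5.43% of all genes, and every R28d_C library was above every Sham_C library for 12 and below for 2, against 12.6% and 6.08%. Between the arms at 28 d, 82 of 84 genes lay above 0 in R28d_T minus R28d_C (median 0.17), and 0 were called (0% of all genes), with 16 at an unadjusted p under 0.05. For 21 genes all R28d_T libraries were above all R28d_C libraries, against 3.37% of all genes. The family sums were 5280.0, 5424 and 5118 FPKM in R28d_T against 4253, 5034 and 4453 FPKM in R28d_C, which did not overlap, whereas the family's share of FPKM outside mitochondrially encoded genes did (2.18%, 2.21% and 2.08% in R28d_T against 1.81%, 2.10% and 1.88% in R28d_C). In sham, 71 of 84 lay above 0 in Sham_T minus Sham_C (median 0.12), against 54.0% of all genes (median 0.01). By limma 0 of the 84 were called (0.0824% of all genes were higher and 0.127% lower), with 22 at an unadjusted p under 0.05. All Sham_T libraries were above all Sham_C libraries for 19 genes, against 10.6% of all genes. Without Sham_T1 and Sham_T2 the family median in this comparison was 0.01. Between the times, 28 d against 24 h over both arms called 0 genes higher and 0 lower (1.47% and 1.5% of all genes), with 11 at an unadjusted p under 0.05. The median was -0.21 over the family and -0.06 over all genes. Rps27l had the lowest value there (-0.90, limma adjusted p = 0.0857).

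The family varied together across the libraries. Pearson's r of a gene's log2(FPKM + 1) with the family median over the 18 libraries had a median of 0.93 over the 84 genes and exceeded 0.9 for 61 of them. These points share their libraries and the deposited normalization. Rps4l (0.49), Rps21 (0.55), Rps25 (0.59), Rplp1 (0.61) and Rpl22l1 (0.62) had the lowest values. Transcript length went with the size of the 24 h difference in the Tiparp arm (Spearman's rho 0.40 over 84 genes) more than in the scramble arm (0.19), given as a description. The 12 genes with transcripts of at most 500 nucleotides had a median log2 difference of -0.10 in the Tiparp arm and 0.44 in the scramble arm. The median 24 h difference over both arms was 0.32 in the 25 genes with the pyrimidine run and 0.32 in the 35 without it. The run was sought only within 3 bases of an annotated start, so a gene whose message starts elsewhere can count as without it. This split therefore cannot tell whether the 24 h difference goes with the TOP motif.

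Other genes of translation were taken from lists, whose counts at 24 h over both arms are to be read against the 19.3% of all genes called higher and the 5.38% called lower. Of 29 initiation factor genes 20 (69.0%) were higher and 0 lower, with a median log2 difference of 0.39. Eif2s2 (0.80), which encodes the beta subunit of eIF2, and Eif4a1 (0.67), a helicase that unwinds message leaders, were among them. Of 42 ribosome biogenesis genes 19 (45.2%) were higher and 0 lower (median 0.33), including Ddx21 (1.06), a nucleolar helicase, and Npm1 (0.69), which encodes nucleophosmin. Of 16 elongation factor genes and other TOP messages 6 (37.5%) were higher and 0 lower (median 0.36), including Pabpc1 (0.61), the poly(A)-binding protein. Of the 18 mTOR and MYC regulators 5 (27.8%) were higher, including Myc (1.30) and the translation repressor Eif4ebp1 (1.24), and 2 (11.1%) were lower (median 0.12). The 78 mitochondrial ribosomal protein genes had 15 higher (19.2%, the share of all genes being 19.3%) and 0 lower, with a median of 0.18. After scaling, where 12.5% of all genes were called higher, 15 initiation, 14 biogenesis, 4 elongation and TOP, 3 regulator and 5 mitochondrial ribosomal genes were higher, and 0, 1, 0, 2 and 2 of these lists were lower. At 28 d none of these lists had a gene called, but over both arms only 1 of all 14242 genes was (0.00702%). The lack of calls there therefore says little of these lists.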

How the data were processed

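Expression was measured by RNA-seq in 18 cortex libraries in 6 groups of 3. Poly(A) RNA was made into dUTP-stranded libraries and read as paired ends, per the labels' protocols. Per the submitters' processing notes, HISAT, StringTie and edgeR were used with build mm9, versions not given in the sources used here. The deposited values are FPKM per gene, made by the authors, with no read totals, so depth is known only roughly from the lowest values.

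Tests used limma 3.58.1 in R 4.3.3 (two-sided, empirical Bayes with a trend) on log2(FPKM + 1), the libraries of the groups compared, and genes with at least 1 FPKM in at least 3 of them, with Benjamini-Hochberg adjustment over all genes tested at 0.05. The pseudocount of 1 understates the change of genes at low FPKM. The code was tested on simulated data. Tables and figures used Python 3.11.15, pandas 2.3.3 and matplotlib 3.10.9. Gene models of GRCm38 (another build) gave names, lengths and overlaps only, and all 86 genes were matched by ID. Some items are not reported here. The family, the lists and the rules for genes named were chosen with earlier results of these data known. The rule names the 4 highest genes, stalk genes, paralogs by name with their parents, up to 6 called genes by size in each direction, and the 3 largest and 3 smallest differences at 24 h. Rps6, Rps29, Rpl22l1's start and the genes listed by subunit were chosen after values were seen. Results were recomputed with median-ratio scaling, with no filter, with a pseudocount of 0.1, with equal sums without mitochondrially encoded genes, with all 18 libraries in 1 fit, with array weights, with a block for the replicate number, with each library left out, and, chosen after seeing the data, leaving out the 4 libraries of high Ttr.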

Additional observations from a re-analysis of the deposited data

How the results depend on the processing

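Calls in R24h_C against Sham_C (26 higher) came to 4 with no filter, 8 with median-ratio scaling, 65 with all 18 libraries in 1 fit, 80 with array weights, 5 without the libraries of high Ttr, and 0 to 78 with single libraries left out. Calls at 24 h over both arms (13 higher) came to 5, 7, 42, 32 and 3 under these settings and 4 to 36 with single libraries left out, where R24h_T3, R24h_C2 and R24h_C1 mattered most, and Sham_T3, R24h_T2 and each Sham_C library gave 7 or fewer. At 28 d over both arms (1 higher) they were 0 with all 18 libraries in 1 fit, 2 with array weights (Rps25 and Rps27l), 0 without the libraries of high Ttr, and 1 to 5 with single libraries left out (5 without R28d_T3). In R28d_T against Sham_T, array weights gave 18 higher, and left-out libraries 0 to 3 (3 without R28d_T3). In R28d_C against Sham_C left-out libraries gave 0 to 1 (1 without R28d_C1). For 28 d against 24 h, all 18 libraries in 1 fit gave 11 lower, array weights 3 lower and left-out libraries 0 to 7 lower (7 without R24h_T3). All counts of lower or higher calls at 0 otherwise stayed at 0. The number called higher among all genes also moved with the settings. In R24h_C against Sham_C (2747) it was 1524 with no filter, 1658 with scaling, 3129 with all 18 libraries in 1 fit and 5473 with array weights. At 24 h over both arms (2812) it was 2181, 1821, 3543 and 3736. In R28d_T against Sham_T (1) it was 1717 with array weights and 512 without R28d_T3. In R28d_C against Sham_C (3) it was 161 without R28d_C1. At 28 d over both arms (1) it was 697 with array weights. Counts that moved without such a number beside them cannot be read as particular to the family. The causes were not tested. None of the called differences recomputed for single genes changed sign.

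Scaling changed the share of higher among all calls from 82.4% to 62.0% in R24h_C against Sham_C and from 78.2% to 57.4% at 24 h over both arms. With the replicate number as a block, calls were 8 in R24h_C against Sham_C and 6 at 24 h over both arms. Among all genes 1683 and 2174 were then called higher, against 2747 and 2812 without the block. Samples with the same number did not deviate together (correlations of -0.48 to 0.15). No sign of pairing by number was thus seen, although this check cannot exclude one, since other differences between libraries enter these values. Rps27l and Rplp0 were called at 24 h over both arms under all 20 alternatives, with log2 differences of 1.17 to 1.58 and 0.73 to 0.97. Rps25 and Rpl7l1 were called there under 19 (not without the libraries of high Ttr), Rpl18 under 15, Rpl7a under 11 and Rps2 under 10. In R24h_C against Sham_C, median-ratio scaling left the calls of Rps27l, Rplp0, Rpl10, Rpl18, Rpl28, Rplp2, Rps13 and Rpl7l1 and ended the other 18, Rps16, Rps2, Rpl36al and Rpl6l among them. The deposited values hold no read counts, which limits the precision of low genes.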
